A study of Xenopus tropicalis with 15 samples.

Results

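The genes described here are the T-box transcription factor genes t (brachyury), eomes (eomesodermin), vegt and tbx6 of the mesoderm of Xenopus tropicalis. They were chosen by name, and their rows were found by the gene symbol that each row of the count table carries. Of the 4 genes listed, t, eomes and vegt have rows among the 28206 genes of the table. Neither the count table nor the gene models carry the name tbx6, and no row of the count table was found under an older symbol of it. However, 12935 of the 28206 rows carry no symbol, and whether one of them holds tbx6 was not tested. The ventrolateral gene of this set was therefore not analysed here.

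T-box factors bind DNA through a conserved T domain, and several of them activate the genes of mesoderm and endoderm in the early frog embryo. Brachyury is made around the whole ring of prospective mesoderm at the blastopore and, later, in the notochord and tailbud, and it maintains its own expression through a loop with FGF signalling. In Xenopus laevis, VegT RNA is stored in the vegetal part of the egg and starts endoderm and mesoderm formation through Nodal ligands, and a zygotic form of VegT RNA is made in the marginal zone and is later absent from the notochord. Eomesodermin is induced by Nodal signals in the prospective mesoderm, with a higher level on the dorsal side, and acts upstream of organiser and mesendoderm genes.

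Poly(A) RNA was sequenced from out-bred X. tropicalis embryos of the Nigerian strain in 3 conditions with 5 libraries each, and each library was made from 10 whole embryos pooled at mid-gastrula (stage 11–11.5) after culture at 25 °C. Untreated embryos served as controls. LiCl-treated embryos were placed in 0.3 M LiCl at the 32-cell stage, which dorsalises the embryo. UV-treated embryos had their vegetal pole irradiated for 2 min, no later than 30 min after fertilisation, which ventralises the embryo. The 5 replicates come from independent experiments per the study's methods. Because whole embryos were pooled, fewer cells of a type and less RNA per cell cannot be told apart. No genotype or transgene differs between the conditions.

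Library totals lay between 11002771 and 18455126 counts for untreated, between 11890416 and 18254396 for UV-treated and between 8412818 and 17737546 for LiCl-treated embryos. All 15 organiser marker genes were summed in each library, and the sum was 1764–2313 CPM (counts scaled to the normalised library size) in untreated, 579–1329 in UV-treated and 3800–4592 in LiCl-treated embryos, so these ranges did not overlap. The libraries numbered 4 had the lowest mean correlation with the other libraries of their condition in untreated (0.934) and LiCl-treated embryos (0.909). UV replicates 4 and 5 were the most alike pair of libraries of a condition, with a chi-square per gene of 4.69 between their counts. That is above the value of 1 that sampling noise gives, and the next pair was at 14.2. Over all genes tested, deviations of UV replicate 4 from its condition mean correlated most with those of replicate 5 in untreated (r = 0.40) and LiCl-treated embryos (r = 0.32). With replicate 4 of these conditions r was −0.25 and −0.12. Whether UV replicates 4 and 5 share an experiment was not tested. They were counted as separate replicates. Results whose call or sign changed without either of them, or without a library numbered 4, are given with and without it.

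The gene models explain what a count of each gene holds, and the plot of exons shows them by distance from the start of each model. On the scaffolds of assembly v7.1, t (Xetrov72001125) spans scaffold 5, 72053579 to 72062232, on the plus strand, with 8 blocks of exons and 3979 exon bases. Its 2 transcript models differ by 3 coding bases. The paralogue t2 (Xetrov72001126) starts 29.6 kb after the end of t on the same strand and also has 8 exons. Reads shared by these paralogues may have been divided between them or lost, so their counts are uncertain to that extent. The models of eomes (Xetrov72033738; scaffold 6, 97450492 to 97457071, plus strand) differ by 57 coding bases at the start of the last exon. Those of vegt (Xetrov72020640; scaffold 1, 55047162 to 55058671, plus strand) have different start codons, 73 and 6359 bases from the start of the gene, and code for 473 and 435 residues. The counts are per gene, so the models of vegt cannot be told apart. No other gene model overlaps any of these genes.

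**Figure D1:**
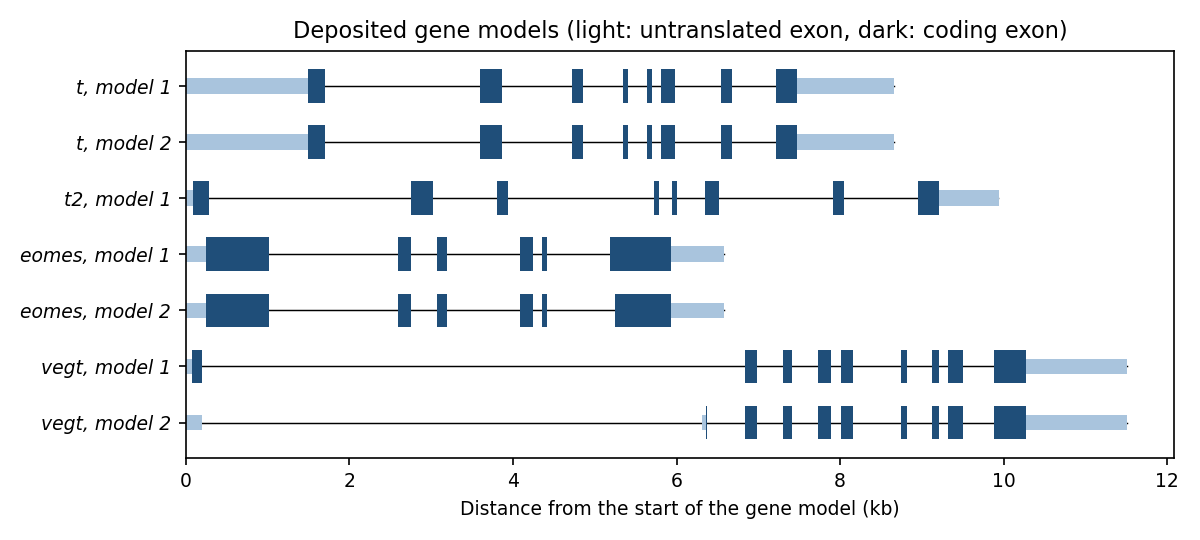
Exons of each deposited transcript model of t, its paralogue t2, eomes and vegt, with the distance from the start of the gene model in kb on the horizontal axis, untranslated exons in light blue and coding exons in dark blue. The models of vegt start translation at different exons, 73 and 6359 bases from the gene's start, whereas both models of t and both of eomes share a start codon.

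Expression was compared between genes per exon length, as RPKM, the CPM divided by the exon length in kilobases. vegt had the highest RPKM of the 3 genes in all 15 libraries, with a mean of 361 ± 90.0 in untreated, 632 ± 52.2 in UV-treated and 337 ± 134 in LiCl-treated embryos (SD, n = 5). t stood next in untreated (188 ± 18.5) and UV-treated embryos (258 ± 27.4), above eomes in every library. In LiCl-treated embryos t (118 ± 13.2) was below eomes (138 ± 14.7) in 4 of 5 libraries, and the RPKM of these 2 genes overlapped, from 107 to 135 and from 124 to 158. This order depends on the modelled exon lengths, since the CPM of t were 0.988 to 1.45 times those of eomes there. The models of t start 1500 bases before the start codon, against 248 bases for eomes. Whether all of that stretch is transcribed was not tested. In untreated embryos eomes was at 54.9 ± 14.5 RPKM and in UV-treated embryos at 58.8 ± 29.2 RPKM.

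t took a different level in each condition. In untreated embryos, replicates 1 to 5 had 754, 771, 842, 638 and 728 CPM of t. In UV-treated embryos they had 974, 1130, 865, 1111 and 1057 CPM. In LiCl-treated embryos they had 517, 426, 430, 444 and 538 CPM. The 3 ranges did not overlap, with LiCl-treated libraries lowest and UV-treated libraries highest. The narrowest gap, between untreated replicate 3 and UV replicate 3, was from 842 to 865 CPM.

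eomes was high in LiCl-treated embryos, with means of 159 CPM in untreated and 171 CPM in UV-treated embryos. Replicates 1 to 5 had 144, 155, 153, 229 and 116 CPM of eomes in untreated embryos, 275, 158, 239, 83.9 and 96.6 CPM in UV-treated embryos and 459, 431, 360, 382 and 371 CPM in LiCl-treated embryos. Every LiCl-treated library was above every other library. The UV-treated libraries were spread widely: replicates 1 and 3 were above all untreated libraries, and replicates 4 and 5, the pair of libraries most alike, were below all of them.

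vegt was high in UV-treated embryos. Replicates 1 to 5 had 1063, 802, 1011, 1402 and 777 CPM of vegt in untreated embryos, 2004, 1821, 1661, 1658 and 1709 CPM in UV-treated embryos and 1032, 771, 434, 1454 and 1031 CPM in LiCl-treated embryos. All UV-treated libraries were above all others. The untreated and LiCl-treated ranges overlapped, replicate 4 was the highest library in both, and LiCl replicate 3 was the lowest of the 15.

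**Figure D2:**
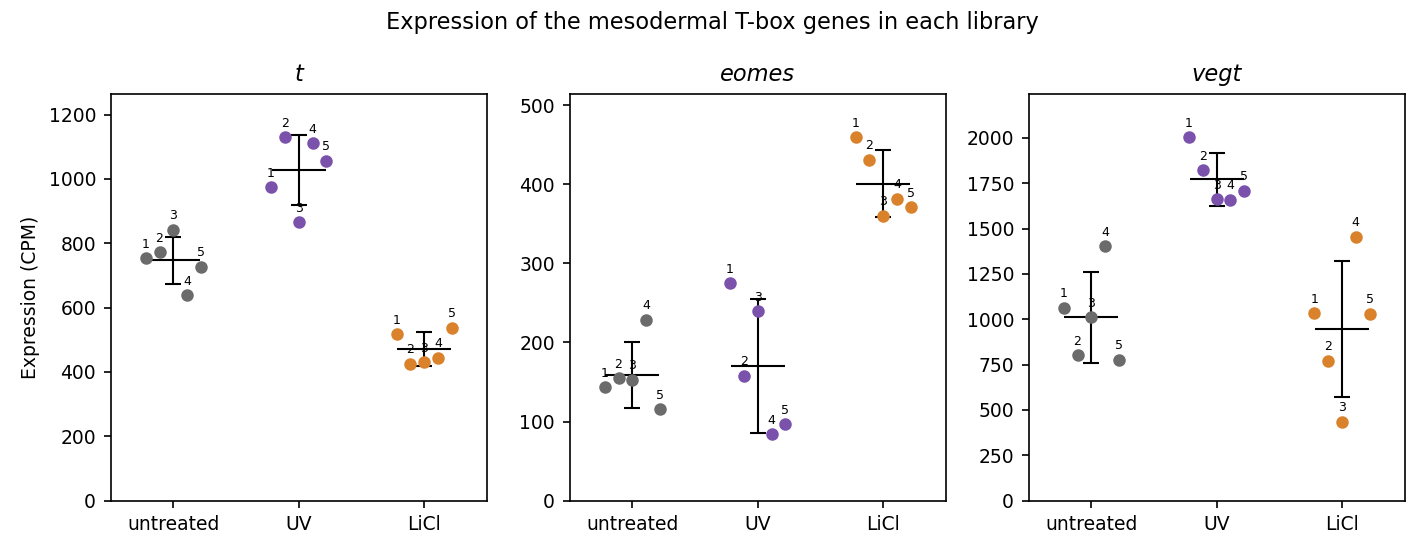
Expression of t, eomes and vegt in CPM (linear axes from 0) in each of the 15 libraries, with the replicate number above each point and the mean ± SD of the 5 libraries of a condition as black bars. t separates all 3 conditions, eomes is at 360–459 CPM in LiCl-treated embryos and at or below 275 CPM elsewhere, and vegt is at or above 1658 CPM in UV-treated embryos and at or below 1454 CPM elsewhere.

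The 3 genes also differed in how much they varied between libraries of a condition. The SD of log2 CPM within conditions, pooled over the 3 conditions, was 0.15 for t, 0.49 for eomes and 0.43 for vegt. Among the 2123 genes that averaged 100 CPM or more, whose median SD was 0.22, these values lay at percentiles 25.9, 91.0 and 87.9.

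The comparison of LiCl-treated with untreated embryos addressed which genes respond to LiCl treatment. A gene was called at a fold change of at least 2 and an FDR of at most 1% in edgeR's quasi-likelihood test, with Benjamini-Hochberg adjustment over the 14041 genes tested. eomes rose 2.52-fold, from 159 ± 42.0 to 401 ± 42.6 CPM (SD, n = 5; log2 fold change 1.33, SE 0.28, edgeR adjusted p = 0.00665). t was 1.59-fold lower, at 747 ± 73.8 CPM in untreated and 471 ± 52.5 CPM in LiCl-treated embryos (log2 fold change −0.66, SE 0.10, edgeR adjusted p = 0.000976), and thus passed the limit on FDR but not that on fold. vegt was at 1011 ± 251.9 and 945 ± 376 CPM, a log2 fold change of −0.10 with a 95% interval from −0.60 to 0.41 (edgeR adjusted p = 0.854). Of the 3 genes, 1 was called higher and none lower, where 2.25% of all genes tested were called higher and 1.42% lower. At an FDR of at most 5% with no limit on fold, t was called lower as well, along with 6.59% of the genes tested. Libraries of the 2 conditions did not overlap for t and eomes, against 8.36% of genes tested.

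Same-numbered LiCl-treated and untreated libraries were taken as pairs, since the deviations of each pair correlated above 0.1. LiCl replicate 3, however, correlated more with untreated replicate 2 (r = 0.37) than with untreated replicate 3 (r = 0.34), so its pairing is uncertain. Between libraries of the same number, eomes was higher in LiCl-treated embryos in 5 of 5 pairs, by 0.74 to 1.68 on the log2 scale. t was lower in 5 of 5 pairs (log2 difference from −0.97 to −0.44), and vegt was lower in 3 of 5. For eomes and t, 5 of 5 follows from the lack of overlap between the conditions under any pairing. The call of eomes was lost when untreated replicate 1, 2, 3 or 5 or LiCl replicate 1, 2, 3 or 5 was left out (edgeR adjusted p up to 0.0208), although the log2 fold change was never below 1.23. Those fits share their estimate of spread with the UV-treated libraries and ignore the pairing. Fits to the 10 libraries of these 2 conditions kept the call of eomes. Its log2 fold change was 1.335 without a block (SE 0.17, edgeR adjusted p = 0.00221) and 1.365 with the replicate block (SE 0.14, edgeR adjusted p = 0.000274). For vegt the sign turned without untreated replicate 4 (log2 fold change 0.05) or LiCl replicate 3 (0.08).

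The comparison of UV-treated with untreated embryos addressed the response to UV treatment. None of the 3 genes was called by edgeR, where 0.00712% of all genes tested were called higher and 0.0641% lower. 2 of the 3, t and vegt, had unadjusted p-values below 0.05, as had 1620 of the 14041 genes tested. DESeq2 called none of the 3 either, but there t passed the limit on FDR (DESeq2 adjusted p = 0.00913) and missed only that on fold. Over all alternatives, adjusted p-values from edgeR or DESeq2 ran from 0.00913 to 0.162 for t and from 0.036 to 0.347 for vegt. t was 1.38-fold higher, at 1027 ± 109 CPM in UV-treated embryos (log2 fold change 0.46, SE 0.10, 95% interval from 0.25 to 0.67, edgeR adjusted p = 0.0523). vegt was 1.75-fold higher, at 1771 ± 146 CPM (log2 fold change 0.81, SE 0.24, 95% interval from 0.30 to 1.32, edgeR adjusted p = 0.170). Both differences were thus below the limits of the call, yet neither gene's libraries overlapped between these conditions, against 3.22% of genes tested. eomes was at 171 ± 84.8 CPM in UV-treated embryos, with a log2 fold change of 0.10 and a 95% interval from −0.49 to 0.69 (edgeR adjusted p = 0.953). Its sign turned without UV replicate 1 (−0.14) or UV replicate 3 (−0.05).

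The comparison of LiCl-treated with UV-treated embryos set the dorsalising and the ventralising treatment against each other, and it uses the same libraries as the comparisons above. t fell 2.18-fold from UV-treated to LiCl-treated embryos (log2 fold change −1.13, SE 0.10, edgeR adjusted p = 1.02e-05), and eomes rose 2.35-fold (log2 fold change 1.23, SE 0.28, edgeR adjusted p = 0.00752). vegt was 1.87-fold lower in LiCl-treated embryos and missed both limits (log2 fold change −0.91, SE 0.24, edgeR adjusted p = 0.0176). Of the 3 genes, 1 was called higher and 1 lower, against 3.55% and 2.55% of all genes tested. At an FDR of at most 5% with no limit on fold vegt was called lower too, as were 6.34% of genes. All 3 genes had no overlap between the 2 conditions, against 12.4% of genes tested.

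t kept its call in this comparison whichever library was left out. The call of eomes was lost without untreated replicate 1, 2 or 3, UV replicate 2, 4 or 5, or LiCl replicate 1, 2, 3 or 5, with edgeR adjusted p-values up to 0.0215 and log2 fold changes from 1.05 to 1.47 over all 15 libraries left out in turn. Its log2 fold change was 1.05 without UV replicate 4 (edgeR adjusted p = 0.0157) and 1.08 without UV replicate 5 (edgeR adjusted p = 0.0207). When the 3 libraries numbered 4 were left out together, an alternative chosen after seeing the data, eomes missed the limit (log2 fold change 1.08, edgeR adjusted p = 0.0103) and vegt passed it (log2 fold change −1.13, edgeR adjusted p = 0.00379). vegt also passed without LiCl replicate 4 alone (log2 fold change −1.12, edgeR adjusted p = 0.00296).

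Whether t and another T-box gene responded differently was tested on their ratio within each library, which does not depend on library size. The CPM of t were 4.97 ± 1.31 times those of eomes in untreated embryos, 7.70 ± 4.34 times in UV-treated embryos and 1.18 ± 0.168 times in LiCl-treated embryos (SD, n = 5). Every LiCl-treated library, from 0.988 to 1.45, was below every other library, of which untreated replicate 4 was the lowest at 2.79. The ratio was 4.08-fold lower in LiCl-treated than in untreated embryos and 5.68-fold lower than in UV-treated embryos (exact two-sided permutation tests, p = 0.00794 each, the smallest that 5 against 5 libraries can give, adjusted p = 0.0238 over 6 ratio tests). With sign flips of the 5 same-numbered pairs, which cannot give a p below 0.0625, both calls were lost (exact permutation, adjusted p = 0.188). Pairing by number was not accepted between LiCl-treated and UV-treated embryos, so those flips rest on doubtful pairs. Both calls were also lost with medians in place of means (adjusted p = 0.143 by exact permutation). Medians tie over several divisions, so this was the lowest adjusted p that these differences could reach beside the other ratio tests. Neither alternative could keep the calls, and no conclusion is drawn from their loss. Between UV-treated and untreated embryos the ratio of t to eomes differed by 0.48 on the log2 scale (exact permutation test, adjusted p = 0.410). UV replicates 4 and 5 had the highest ratios, at 13.2 and 10.9, and UV replicates 1 and 3 had ratios of 3.54 and 3.61. The log2 difference between UV-treated and untreated embryos was 0.23 without UV replicate 4, 0.30 without UV replicate 5, 0.28 without untreated replicate 4 and at most 0.71 with any other library left out, and it passed the test in none of these cases (exact permutation tests, adjusted p from 0.254 to 0.794).

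The ratio of t to vegt was 0.779 ± 0.207 in untreated, 0.583 ± 0.0765 in UV-treated and 0.574 ± 0.252 in LiCl-treated embryos (SD, n = 5). The 3 ranges overlapped. None of the 3 differences passed the exact permutation test, with adjusted p-values of 0.274 between LiCl-treated and untreated embryos, 0.222 between UV-treated and untreated embryos and 0.683 between the treatments. The lowest ratio in each of untreated (0.455) and LiCl-treated embryos (0.305) was that of replicate 4. Between LiCl-treated and untreated embryos the log2 difference was −0.49, and it moved to −0.29 without LiCl replicate 4 and to −0.72 without LiCl replicate 3, with neither past the test (exact permutation, adjusted p = 0.487 and 0.0635). Without untreated replicate 4, the ratio was lower in UV-treated than in untreated embryos by a log2 difference of −0.56 (exact permutation test, adjusted p = 0.0159). With a library left out, p-values were adjusted over only the ratio tests that use its condition, a more lenient adjustment than in the main tests.

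**Figure D3:**
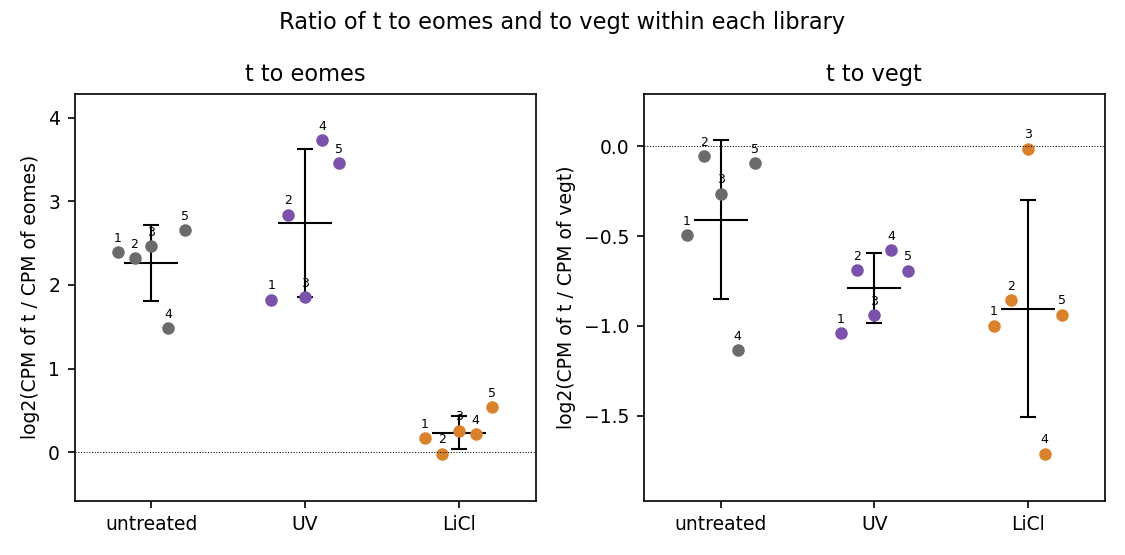
Log2 ratio of the CPM of t to those of eomes (left) and of vegt (right) in each library, with the replicate number above each point and the mean ± SD of 5 libraries as black bars; the dotted line marks equal CPM. The ratio of t to eomes lies near equality in LiCl-treated libraries (0.988 to 1.45 on the linear scale) and at 2.79 or above in all others, whereas the ratios of t to vegt overlap between conditions.

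Across the 15 libraries, log2 CPM of t and eomes were inversely related (Pearson r = −0.81, Spearman rho = −0.70), those of t and vegt directly (r = 0.66, rho = 0.72), and those of eomes and vegt weakly (r = −0.29, rho = −0.21). These are descriptions over libraries of 3 conditions. After the condition means were subtracted, r was −0.49 for t and eomes, 0.08 for t and vegt and 0.29 for eomes and vegt.

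The genes whose log2 CPM were most like those of each T-box gene over the 15 libraries were found among the 7726 genes that averaged 10 CPM or more. For t they were klf5, a Krüppel-like transcription factor (r = 0.963), hes6.1, of the Hes family of repressors (0.962), the Notch ligand gene dll1 (0.961), pnhd, which encodes a secreted protein (0.953), and LOC100495414 (0.949). All 5 were lower in LiCl-treated than in UV-treated embryos, with log2 fold changes from −2.504 for klf5 to −1.20 for pnhd. This shared direction follows from choosing genes by their correlation with t over all conditions and is no separate result. Their deviations from the condition means were correlated with those of t at r from 0.45 (pnhd) to 0.76 (hes6.1). For eomes they were the glypican gene gpc4 (r = 0.940), the co-repressor gene skor1 (0.924), phldb3 (0.923), the deubiquitinase gene usp28 (0.914) and an unnamed gene, Xetrov72040122 (0.913). For vegt they were c8orf42 (r = 0.917), wdr76 (0.897), the SNARE gene snap29 (0.895), lrrfip1 (0.895) and prkacb, which encodes a catalytic subunit of protein kinase A (0.874). Within conditions the r of these 5 with vegt lay between 0.80 (c8orf42) and 0.89 (prkacb). For eomes and its 5 genes it lay between 0.72 (Xetrov72040122) and 0.92 (phldb3). All these r values within conditions, those for t included, come from the libraries used to choose the genes and are no separate result.

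Of 19 symbols listed for other T-box genes, 13 have rows that carry the symbol and 7 passed the filter on low counts. Rows with no symbol were not searched for the others. The paralogue t2, like t, encodes a brachyury protein. Replicates 1 to 5 had 80.7, 83.6, 78.3, 50.1 and 104 CPM of t2 in untreated, 26.1, 54.0, 39.1, 51.0 and 54.8 CPM in UV-treated and 67.5, 56.1, 68.9, 27.9 and 82.5 CPM in LiCl-treated embryos. The conditions overlapped, and UV-treated libraries had the lowest mean, 45.0 ± 12.3 CPM against 79.3 ± 19.2 CPM in untreated embryos (SD, n = 5; log2 fold change −0.82, SE 0.27, edgeR adjusted p = 0.229). Of the counts of t and t2 together, t2 held 7.28–12.5% in untreated, 2.61–4.93% in UV-treated and 5.91–13.8% in LiCl-treated libraries, so that the share in every UV-treated library was below that in every other library. This share was examined after the values were seen and was not tested.

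tbx3, which encodes a T-box repressor, was the only gene called among the 7 other T-box genes tested. Its lowest, median and highest CPM were 20.8, 40.2 and 80.6 in untreated, 23.1, 76.9 and 161 in UV-treated and 2.498, 8.16 and 12.6 in LiCl-treated embryos. It fell 11.3-fold from UV-treated to LiCl-treated embryos (log2 fold change −3.49, SE 0.58, edgeR adjusted p = 0.000791), where 2.55% of all genes tested were called lower. tbx3 missed the limit against untreated embryos (log2 fold change −2.38, edgeR adjusted p = 0.0112). No LiCl-treated library overlapped either condition, against 8.36% of genes tested for untreated and 12.4% for UV-treated embryos. tbx1, a gene of pharyngeal and cardiac mesoderm, was at 31.2 ± 18.3 CPM in untreated, 9.11 ± 2.79 in UV-treated and 50.7 ± 28.1 in LiCl-treated embryos and missed the limit between LiCl-treated and UV-treated embryos (log2 fold change 2.48, edgeR adjusted p = 0.0103). The related repressor gene tbx2 was at 68.5 ± 39.7, 99.4 ± 56.5 and 38.8 ± 15.9 CPM in untreated, UV-treated and LiCl-treated embryos. mga, which encodes a large protein with a T domain and a Max-binding domain, was at 65.0 ± 14.4, 65.5 ± 4.05 and 86.4 ± 25.8 CPM in the same order. tbr1, related in sequence to eomes, was at 2.26 ± 1.15, 3.36 ± 2.11 and 7.17 ± 4.77 CPM. None of tbx1, tbx2, mga and tbr1 was called in any comparison.

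**Figure D4:**
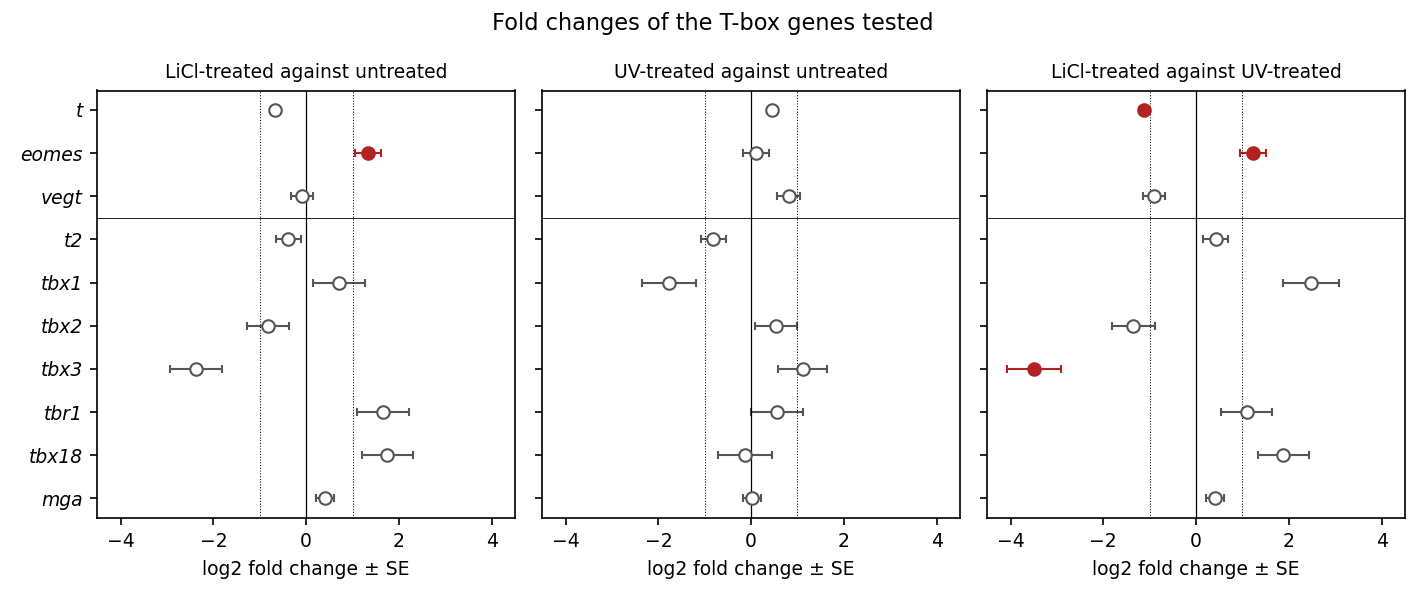
Log2 fold changes ± SE from edgeR for the 3 mesodermal T-box genes (above the horizontal line) and the 7 other T-box genes tested (below it) in each comparison; filled red points passed the limits of 2-fold (dotted lines) and 1% FDR. eomes is called in both comparisons of LiCl-treated embryos, t and tbx3 between LiCl-treated and UV-treated embryos, and no T-box gene between UV-treated and untreated embryos.

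Of 11 ligands tested that can induce T-box genes, wnt8a, a ventrolateral Wnt ligand, was the only gene called in LiCl-treated against untreated embryos (lower, log2 fold change −2.22, SE 0.30), where 1.42% of all genes tested were called lower. The median log2 fold change of the list was 0.65 there, against 0.01 over all genes tested, and no ligand was called higher. Several of these ligands were low in untreated embryos, with means of 0.42 CPM for nodal6, 0.61 for nodal3.1, 3.15 for fgf3 and 3.81 for gdf1. Between LiCl-treated and UV-treated embryos wnt8a fell (−3.35, SE 0.32) and nodal, which encodes a ligand of the Nodal pathway, rose (1.85, SE 0.31), with 2.55% of all genes called lower and 3.55% higher and a list median of 0.19. None was called in UV-treated against untreated embryos (list median 0.08).

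Genes known as targets of T-box factors were counted from 2 lists written from general knowledge of frog, fish and mouse embryos. Like the other lists, these were chosen with earlier results of these data known, so their counts are descriptions. Of 20 posterior and paraxial genes tested, 6 fell and none rose in LiCl-treated against untreated embryos, where 1.42% of all genes tested were called lower and 2.25% higher, with a median log2 fold change of −0.78 against 0.01 over all genes tested. The largest of these changes were in msgn1 (mesogenin, a regulator of paraxial mesoderm; −4.08), cdx1 (a posterior homeobox gene; −2.29), wnt8a (−2.22) and cdx4 (a further posterior homeobox gene; −1.95). Between LiCl-treated and UV-treated embryos 8 fell, among them msgn1 (−4.05), wnt8a (−3.35) and cdx1 (−2.57), and 2 rose, hes7.1 (a Hes-family repressor; 3.12) and ripply2.2 (a T-box co-repressor; 2.29), against 2.55% of all genes called lower and 3.55% higher. In UV-treated against untreated embryos hes7.1 alone was called, and it fell (−3.51; 0.0641% of all genes were called lower), with a median of 0.11 for the list and −0.02 for all genes. Mean CPM in untreated, LiCl-treated and UV-treated embryos were 31.3, 23.9 and 2.69 for hes7.1 and 185.1, 184.5 and 37.7 for ripply2.2. Neither gene was thus higher on average in LiCl-treated than in untreated embryos. Of the genes named here, wnt8a is also on the ligand list and ripply2.2 on that of co-factors and repressors. The genes wnt8a, msgn1 and cdx4 are also counted among the ventrolateral mesoderm markers below.

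Of 17 mesendodermal targets, gata4, a regulator of endoderm and heart, was the only gene called in LiCl-treated against untreated embryos (higher, log2 fold change 1.07; 2.25% of all genes were called higher), with a list median of 0.94. None was called in UV-treated against untreated embryos (list median −0.19). Between LiCl-treated and UV-treated embryos 4 rose and none fell: the organiser gene gsc (4.101), lhx1, which acts in the organiser as well (2.02), nodal (1.85) and gata4 (1.27). Of all genes tested, 3.55% were called higher and 2.55% lower, and the list median was 0.66 against 0.03 for all genes. These 4 genes are counted on other lists as well: gsc and lhx1 as organiser markers, nodal as a ligand and gata4 as an endoderm marker. Among 20 co-factors and repressors tested, ventx3.2, a ventral homeobox gene, fell in LiCl-treated against untreated embryos (−1.59; 1.42% of all genes were called lower), and none was called in UV-treated against untreated embryos. Between LiCl-treated and UV-treated embryos 2 rose and 4 fell (3.55% and 2.55% of all genes), with ripply2.2 at 2.29, ventx3.2 at −2.25, ventx1.1 at −2.001 and ventx1.2 at −1.79.

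Markers of the regions of the whole embryo were counted in the same comparisons. In LiCl-treated against untreated embryos, 3 of 14 organiser markers tested and 1 of 10 endoderm markers rose, and none of these fell. There, 8 of 13 ventrolateral mesoderm markers and 10 of 15 epidermis markers fell, and none rose. Of 13 neural plate markers none rose and 1 fell (2.25% of all genes were called higher and 1.42% lower). In UV-treated against untreated embryos, 1 of 14 organiser markers tested and 1 of 13 neural plate markers fell, and no marker of ventrolateral mesoderm, endoderm or epidermis was called (0.00712% of all genes were called higher and 0.0641% lower). Between LiCl-treated and UV-treated embryos, 11 of 14 organiser markers tested rose and none fell, and 11 of 13 ventrolateral mesoderm markers fell and none rose, against 3.55% of all genes called higher and 2.55% lower. The ventrolateral markers summed to 3805–5852 CPM in untreated, 4648–8761 in UV-treated and 1540–3592 in LiCl-treated libraries. The 10 endoderm markers, of which 2 rose in this comparison, summed to 1963–2568, 1835–2814 and 2578–4455 CPM in the same order. Of 15 epidermis markers, 12 fell and none rose, with sums of 7952–17200, 12710–23730 and 2872–5900 CPM. Of 13 neural plate markers 8 rose and none fell, with sums of 3512–3973, 1549–2932 and 2791–4606 CPM. No list was at 0 in any condition. The paper had already named several of these markers as changed in the same libraries, so the counts describe the lists and do not test them. Genes that stand on several lists, such as wnt8a, otx2 and the ventx genes, were counted in each of them. The part of these regions in the levels of t, eomes and vegt was not tested.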

How the data were processed

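The unit is the count: the authors deposited whole-number read counts per gene, made by aligning paired-end reads to gene models v7.2 on assembly v7.1 and counting them with HTSeq. The submitters' processing notes also name CASAVA 1.8.2, TopHat2 2.0.10 and 2.1.1, and DESeq2; the strand setting is not given in the sources used here. The deposited gene models gave exon lengths for RPKM.

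The analysis used edgeR 4.0.16 under R 4.3.3 (filterByExpr, TMM, robust quasi-likelihood fit to 15 libraries with condition as the only term, Benjamini-Hochberg adjustment). CPM use TMM effective library sizes. The SE is the log2 fold change divided by the square root of F, and fold changes have a prior count of 0.125. The test was first run on simulated counts with known changes. Ratios of t to another gene were tested by exact permutation over 252 divisions of 10 libraries. With a library left out, the adjustment was over only the ratio tests that use its condition. Of 9 ratio tests planned, 3 needed tbx6 and were not run. Alternatives were other normalisations and filters, DESeq2 1.42.0, blocks, thresholds and libraries left out.

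Members and lists were chosen with earlier results of these data known. t, eomes and vegt were always named, with other T-box genes of at least 1 CPM, the 4 largest called changes of each target or ligand list, and the 5 genes most alike. Further called genes of a list may be named; marker lists were summarised by counts. Pairing by replicate number was accepted where every same-numbered pair's deviations correlated above 0.1; the methods describe 5 independent experiments. LiCl-treated and untreated libraries met this rule (0.338 to 0.731), whereas replicate 4 did not in UV-treated against untreated (−0.254) or LiCl-treated against UV-treated embryos (−0.120). The rule did not ask that a same-numbered pair be the most alike. UV replicate 1 correlated more with untreated replicate 4 (0.39) than with untreated replicate 1 (0.25).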

Additional observations from a re-analysis of the deposited data

Results flagged for a closer look

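In untreated embryos the log2 ratio of t to eomes of replicate 4 was 1.48, and its gap to the nearest of the other 4 libraries was 0.714 of the range of the group, above Dixon's critical value of 0.71 for 5 samples. It was the only one flagged of 18 groups of 5 libraries, and chance flags about 1 in 20 groups. This library also had the highest eomes (229 CPM) and the lowest t (638 CPM) and t2 (50.1 CPM) of its condition.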

How the results depend on the processing

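Leaving out each library in turn gave log2 fold changes from 1.23 to 1.496 for eomes in LiCl-treated against untreated embryos (call lost in 8 of 15), from 1.05 to 1.47 for eomes in LiCl-treated against UV-treated embryos (lost in 10 of 15), from −1.12 to −0.72 for vegt there (gained in 1), from −0.31 to 0.084 for vegt in LiCl-treated against untreated embryos (sign turned in 2) and from −0.14 to 0.27 for eomes in UV-treated against untreated embryos (sign turned in 2). The t to vegt ratio ranged from −0.34 to 0.086 (log2) in LiCl-treated against UV-treated embryos, with the sign turned without LiCl replicate 4, from −0.56 to −0.29 in UV-treated against untreated embryos and from −0.72 to −0.29 in LiCl-treated against untreated embryos; the t to eomes ratio in UV-treated against untreated embryos ranged from 0.23 to 0.71. No alternative turned the sign of the fold changes of t, and its call changed only in LiCl-treated against untreated embryos (−0.66) at 5% FDR with no fold limit, where vegt in LiCl-treated against UV-treated embryos (−0.91) passed too.

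Without a filter on low counts the call of eomes was lost in LiCl-treated against untreated (1.29, edgeR adjusted p = 0.0133) and against UV-treated embryos (1.19, edgeR adjusted p = 0.0174), the latter also in fits to the 10 libraries of that comparison without a block (1.23, edgeR adjusted p = 0.0188) and with the replicate block (1.38, edgeR adjusted p = 0.0135). Without the libraries numbered 4, chosen after seeing the data, eomes (1.08) and vegt (−1.13) changed sides there. The replicate block changed no other call of these genes. For the t to eomes ratio, sign flips of same-numbered pairs (replicate block) gave −2.03 and −2.51 with adjusted p = 0.188 by exact permutation, where 5 pairs cannot give a p below 0.0625. Medians gave −2.17 and −2.62 (adjusted p = 0.143 by exact permutation, the lowest that these differences could reach beside the other ratio tests).

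Over all genes, edgeR called 515 for LiCl and 10 for UV treatment against untreated embryos and 857 between the treatments. DESeq2 called 1183, 124 and 1579 in the same order, and 5% FDR with no fold limit gave 1889, 82 and 2135. In UV-treated against untreated embryos the replicate block over 15 libraries gave 46 and leaving out the libraries numbered 4 gave 66. Fits to the 10 libraries of a comparison called 908 with the replicate block and 247 without it in LiCl-treated against untreated embryos; in UV-treated against untreated embryos edgeR then called 0 either way, with 1830 and 1693 genes at an unadjusted p under 0.05. Leaving out 1 library gave 265 to 701, 3 to 41 and 618 to 1140 calls. The causes were not tested. The ratio of t to tbx6 could not be computed, and the lowest count of t, eomes or vegt in any library was 1113 (eomes, UV replicate 5).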
